A study of Mus musculus with 18 samples.

Results

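The heat shock and chaperone transcripts described here are 10 rows of the count files, chosen by their RefSeq identifiers: Hsf1 (NM_008296), Hspa1a (NM_010479), Hspa1b (NM_010478), Hspa8 (NM_031165), Hspa5 (NM_022310), Hsp90aa1 (NM_010480), Hsp90ab1 (NM_008302), Hspd1 (NM_010477), Dnajb1 (NM_018808) and Hspb1 (NM_013560). All 10 rows were present among the 26823 transcripts in the files, and all 10 were among the 15333 transcripts tested, those that reached 10 counts in 3 or more embryos. The measurements come from 18 single mouse embryos at the 2-cell stage, 9 with wild-type fathers (fathers 1, 2 and 3) and 9 with Parg(110)-/- fathers (fathers 6, 7 and 8), 3 embryos to a father, all from natural matings with wild-type 129SVE females. Parg encodes the glycohydrolase that degrades poly(ADP-ribose), and Parg(110)-/- males lack its 110 kDa isoform but keep others, so the allele is hypomorphic and not a null. With wild-type mothers, the embryos of these males carry 1 disrupted copy and developed in cytoplasm from a wild-type oocyte. Embryos are named by father and embryo, so that 8-3 is the embryo with number 3 of father 8.

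Heat shock proteins are molecular chaperones that hold unfolded proteins, fold them with the use of ATP and hand them to one another. Heat shock factor 1, encoded by Hsf1, is the transcription factor that raises the inducible members after heat and other protein-damaging stress by binding repeated GAA and TTC blocks in their promoters. In the mouse, the oocyte loads the egg with transcripts of many of these proteins, and Hspa1a and Hspa1b are known as some of the earliest genes that the embryo itself transcribes when its genome becomes active. The comparison of the fathers asked whether sperm chromatin altered by poly(ADP-ribose) metabolism goes with a different level of these transcripts in the offspring.

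Levels are given in CPM, counts scaled to a file total of 1000000. Totals lay between 2852858 and 13355161 counts, so that 1 count was worth 0.0749 to 0.351 CPM. In every one of the 18 embryos the summed level of 16 maternal oocyte transcripts was high (1082 to 2289 CPM). Transcripts of 2-cell genome activation summed to 168 to 1047 CPM, of which Sp110 alone made up 43.8% to 91.9%. Of 6 sperm markers 4, Prm1 among them, had no count, and the 6 summed to at most 3.52 CPM. Of the 8 cumulus and granulosa cell markers, 5 had no count, and the list reached 7.92 CPM in the wild-type group and 11.5 CPM in the Parg(110) group. Oviduct markers summed to 34.4 to 163.7 CPM with wild-type fathers and to 20.04 to 486.9 CPM with Parg(110)-/- fathers, and blood markers to at most 2.48 and 14.2 CPM. Within the oviduct list, Epcam was present in all 18 embryos (92.2 ± 46.5 and 63.1 ± 38.8 CPM, SD, n = 9 each), whereas Ovgp1, the oviduct glycoprotein, stood at 0.694 ± 1.03 and 64.1 ± 141.1 CPM and reached 428 CPM in embryo 6-2, 114.0 in 6-3 and 19.7 in 8-3. Its log2 fold change of 6.55 (SE 1.51, edgeR adjusted p = 0.334) had the lowest adjusted p of all transcripts tested and did not pass. With all 18 embryos 0 members were called between the groups, and likewise without embryo 6-2, 6-3 or 8-3. As there was no call to begin with, leaving these embryos out is no check on oviduct material. The part of these other cell types in the levels below was not tested. Parg itself (NM_011960) stood at 74.7 ± 32.1 CPM (SD, n = 9) with wild-type fathers and 46.4 ± 18.3 CPM (SD, n = 9) with Parg(110)-/- fathers, a log2 fold change of -0.67 (SE 0.34, adjusted p = 0.872 by edgeR) that did not pass the threshold of 0.1.

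Sequence matters for reading these rows, because only reads that mapped to 1 place in the genome were counted. Hspa1a (chr17:35106144-35109069 of mm9, minus strand) and Hspa1b (chr17:35093381-35096183, minus strand) are intronless neighbours that encode the inducible HSP70 protein. Over 1926 aligned coding positions they differed at 8, with 3 more bases in a gap, and their longest identical coding run was 638 bases. The stretch from coding position 1297 to 1416 in the GENCODE transcripts holds 2 of those differences. It is shown because, within the coding sequence, a read can be given to a single gene only where it covers a difference (capitals mark the bases that differ).
Hspa1a: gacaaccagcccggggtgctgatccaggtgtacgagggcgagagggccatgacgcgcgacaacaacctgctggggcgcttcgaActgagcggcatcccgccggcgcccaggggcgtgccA
Hspa1b: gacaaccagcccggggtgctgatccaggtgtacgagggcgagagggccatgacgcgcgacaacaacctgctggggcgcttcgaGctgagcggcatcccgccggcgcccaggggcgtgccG
For Hspa1a, 90.7% of coding 32-base words and 19.0% of the other words occurred at another place in mm9, and for Hspa1b 87.9% and 25.4%. Most sequence found once in these 2 transcripts thus lies outside the coding part. Of all 32-base words of the Hspa1a transcript, 65.9% occurred at another place, and of those of Hspa1b 68.2%. The share was as high for members with copies elsewhere in the genome: 79.9% for Hspa8 (chr9:40609067-40613283), 78.7% for Hspb1 (chr5:136363789-136365433), 77.8% for Hsp90aa1 (chr12:111928815-111940938) and 72.7% for Hspd1 (chr1:55134679-55145087). It was 21.9% for Hsp90ab1 (chr17:45704724-45710220), 1.61% for Dnajb1 (chr8:86132074-86135801), 0.487% for Hsf1 (chr15:76307865-76331402) and 0% for Hspa5 (chr2:34627490-34632051). The read length is not given in the sources used here, and longer reads would leave fewer such stretches, so these shares describe 32-base words and not the reads. The words were matched exactly, so a near copy with 1 different base counted as other sequence, although the mapping allowed 1 mismatch. The first 6 of these rows are uncertain as levels, since an unknown part of their reads could not be counted or could belong to a copy.

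The promoters differed in whether they hold a facing pair, 2 bases apart, of the blocks that Hsf1 binds. Single blocks and pairs with another spacing were not searched for. RefSeq promoters (GRCm38.p6) were at hand for 6 of the 10 members, in 8 windows of the 250 bases before a transcription start. A facing pair of blocks, GAANNTTC or TTCNNGAA, both read on both strands, was found in a window of Hspa1a, Hspa1b, Hspd1 and Hspb1. Of the 32851 promoter windows of the whole table, 12.8% held it. A run of 3 such blocks in alternating orientation, each 2 bases from the next, which contains the pair, was found only in Hspd1 among the 6, and in 0.466% of all windows. The 30 bases around the pairs are shown 5′ to 3′ on the strand of the gene, with the matched letters in capitals, because they are what sets these 4 promoters apart from those of Hspa5 and Dnajb1 in this search.
Hspa1a, chr17:34972242-34972271: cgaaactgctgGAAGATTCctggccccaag
Hspa1b, chr17:34959324-34959353: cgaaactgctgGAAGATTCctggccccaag
Hspd1, chr1:55088053-55088082: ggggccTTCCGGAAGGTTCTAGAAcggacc
Hspb1, chr5:135887801-135887830: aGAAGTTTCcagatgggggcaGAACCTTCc
The windows of Hspa5 and Dnajb1 held neither form, nor did another window of Hspd1 (chr1:55088244-55088493). CCAAT or its reverse complement, found in 33.8% of all windows, was present 4 times in Hspa5 and 1 time each in Hspa1a, Hspa1b and a Dnajb1 window. The Hspa1a and Hspa1b windows differed at 3 of 250 positions, so the 30 bases shown for them are the same. These matches describe letters and not bound sites.

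Divided by transcript length, the levels spanned several orders of magnitude. The median of the 18 embryos was 1571 CPM per kilobase of transcript for Hsp90ab1, the constitutive cytosolic HSP90, which was above Hsp90aa1, the inducible HSP90, at 157 CPM per kilobase, in 18 of 18 embryos and without overlap of their ranges. Hsf1 followed at 74.2 and Hspa5, the chaperone BiP of the endoplasmic reticulum, at 43.3 CPM per kilobase. Dnajb1, a J protein that stimulates the ATPase of HSP70, stood at 17.1 and Hspd1, the mitochondrial chaperonin HSP60, at 15.1 CPM per kilobase, and the order of these neighbours was even, with Dnajb1 higher in 9 of 18 embryos. Hspa8, the constitutive HSC70, stood at 8.72 CPM per kilobase, Hspa1a at 1.49, Hspa1b at 0.323 and Hspb1, a small heat shock protein, at 0.0961. Apart from the first step, the ranges of neighbours in this order overlapped.

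**Figure D1:**
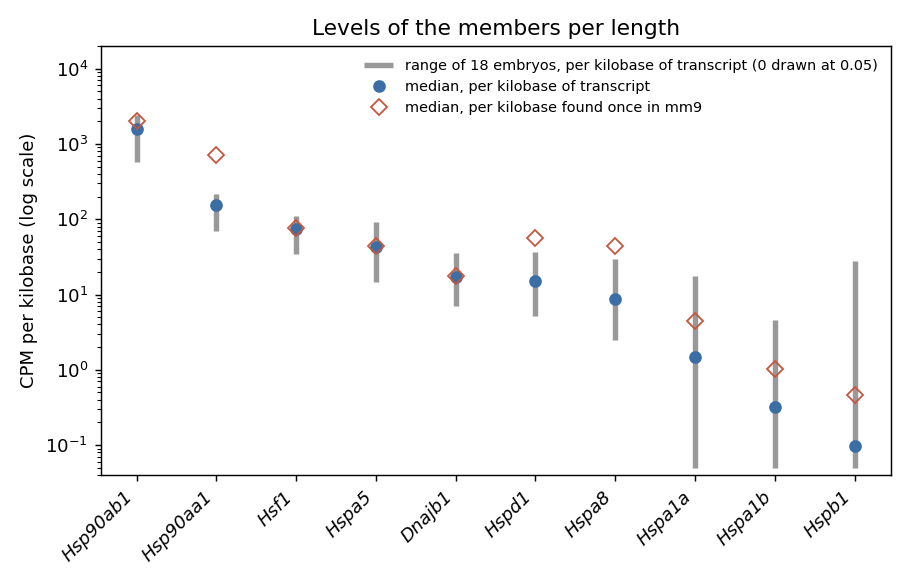
Level of each member in CPM per kilobase on a log axis, as the range (bars) and median (circles) of 18 embryos per kilobase of transcript, with the median per kilobase found once in mm9 as open diamonds. Hsp90ab1 is highest by either length, and the medians of Hspa8 (5.05-fold), Hspb1 (4.85-fold) and Hsp90aa1 (4.56-fold) move up most when only unique sequence is counted.

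Divided by the length of sequence that occurs once in mm9, a choice made after the levels were seen and one that rests on the 32-base words, the order changed in the middle. Hsp90ab1 stood at 2036 and Hsp90aa1 at 714 CPM per unique kilobase, and their ranges then overlapped although Hsp90ab1 was higher in 18 of 18 embryos. Hsf1 (75.7), Hspd1 (56.1), Hspa8 (44.1) and Hspa5 (43.8) then lay side by side, with Hsf1 above Hspd1 in 9 of 18 embryos and Hspa8 above Hspa5 in 9 of 18. Dnajb1 (17.6) came below Hspd1 and Hspa8, and Hspa1a (4.42), Hspa1b (1.03) and Hspb1 (0.467) were lowest by either length. The place of Hspd1 and Hspa8 against Hspa5 and Dnajb1 thus depends on how much of the sequence could be counted.

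None of the 10 members passed the test between the groups of fathers, and their differences were small or had wide intervals. No transcript of 15333 passed an adjusted p of 0.1 (percent called 0), and no member had an unadjusted p below 0.05, a level that 889 transcripts or 5.8% reached. DESeq2 called 38 transcripts and 0 members, giving Hspb1 no adjusted p. The members' adjusted p-values by edgeR lay between 0.966 and 0.9998. Their median log2 fold change was -0.14, against -0.02 over all transcripts tested, with 3 members above 0 and 7 below, where 51.0% of all transcripts lay below 0. For 6 members the 95% interval lay within 1 on the log2 scale in both directions, so that a doubling or a halving of the mean was outside it; for Hspa1a, Hspa1b, Hspa8 and Hspb1 it was wider. Embryos of 1 father were counted as separate samples in this test.

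**Figure D2:**
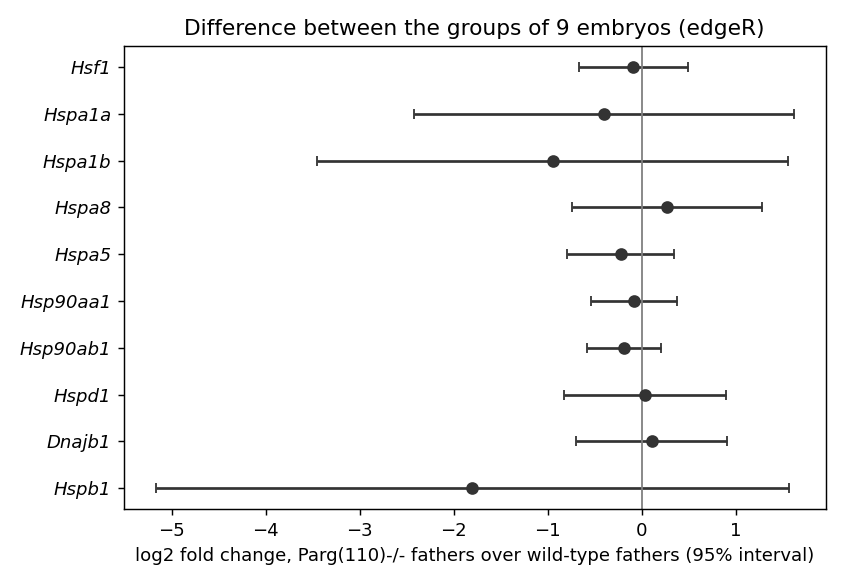
Difference of each member between the groups of 9 embryos on the log2 scale, with 95% intervals from edgeR. Every interval includes 0, and those of Hspb1, Hspa1b and Hspa1a are the widest.

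Among the regulators and the HSP70 proteins, Hsf1 was detected in every embryo. Its lowest, median and highest level was 86.6, 160.5 and 222.1 CPM with wild-type fathers and 72.5, 132.4 and 230.7 CPM with Parg(110)-/- fathers. The groups overlapped, with 1 Parg(110) embryo above and 2 below every wild-type embryo. The log2 fold change of Hsf1 was -0.09 (95% interval -0.67 to 0.49). Hspa1a was low and uneven: the wild-type embryos held 0, 4.12 and 52.2 CPM as lowest, median and highest, and the Parg(110) embryos 0.107, 7.33 and 21.3 CPM. Its highest level, in embryo 2-2, was 425 counts of 8140214, and the embryo without a count, 2-3, had the smallest file, in which 3 counts are 1.05 CPM. The log2 fold change of -0.40 (95% interval -2.42 to 1.62) became 0.69 without embryo 2-2, which lowered the wild-type mean from 10.1 ± 16.8 (SD, n = 9) to 4.85 ± 6.28 CPM (SD, n = 8).

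Hspa1b was found in 15 of the 18 embryos. It held 0, 0.979 and 12.8 CPM as lowest, median and highest in the wild-type group and 0, 0.834 and 5.35 CPM in the Parg(110) group. Its log2 fold change was -0.94 (95% interval -3.45 to 1.56), and -0.15 without embryo 1-1. Hspa1a had more counts than Hspa1b in 14 embryos, fewer in 2 and the same number in 2, and 1354 against 377 counts in all. The ratio was not steady from embryo to embryo: embryo 1-1 had 217 and 146 counts of Hspa1a and Hspa1b, embryo 6-3 had 232 and 16, and embryo 7-2 had 1 and 32. Their Spearman correlation over the 18 embryos was 0.50 and Pearson's r 0.50 (permutation p 0.036 for both, adjusted p 0.54 and 0.32 over the 45 pairs of members), and Pearson's r fell to 0.34 without the 2 embryos farthest from the median of Hspa1a. No pair of members passed an adjusted Spearman p of 0.1.

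Hspa8 was detected in every embryo. It ranged from 9.81 to 51.7 CPM (median 16.3) with wild-type fathers and from 5.93 to 70.4 CPM (median 22.7) with Parg(110)-/- fathers. Embryo 7-3 was above and embryos 7-2 and 8-2 were below every wild-type embryo. The log2 fold change of 0.27 (95% interval -0.74 to 1.28) turned to -0.06 without embryo 7-3. Hspa5 was tighter in the Parg(110) group, from 86.5 to 162.8 CPM (median 101.4), than in the wild-type group, from 38.0 in embryo 2-2 to 238.6 CPM in embryo 3-1 (median 127.4); the difference in spread was not tested. All Parg(110) embryos lay inside the wild-type range of Hspa5, and the log2 fold change was -0.22 (95% interval -0.79 to 0.34).

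**Figure D3:**
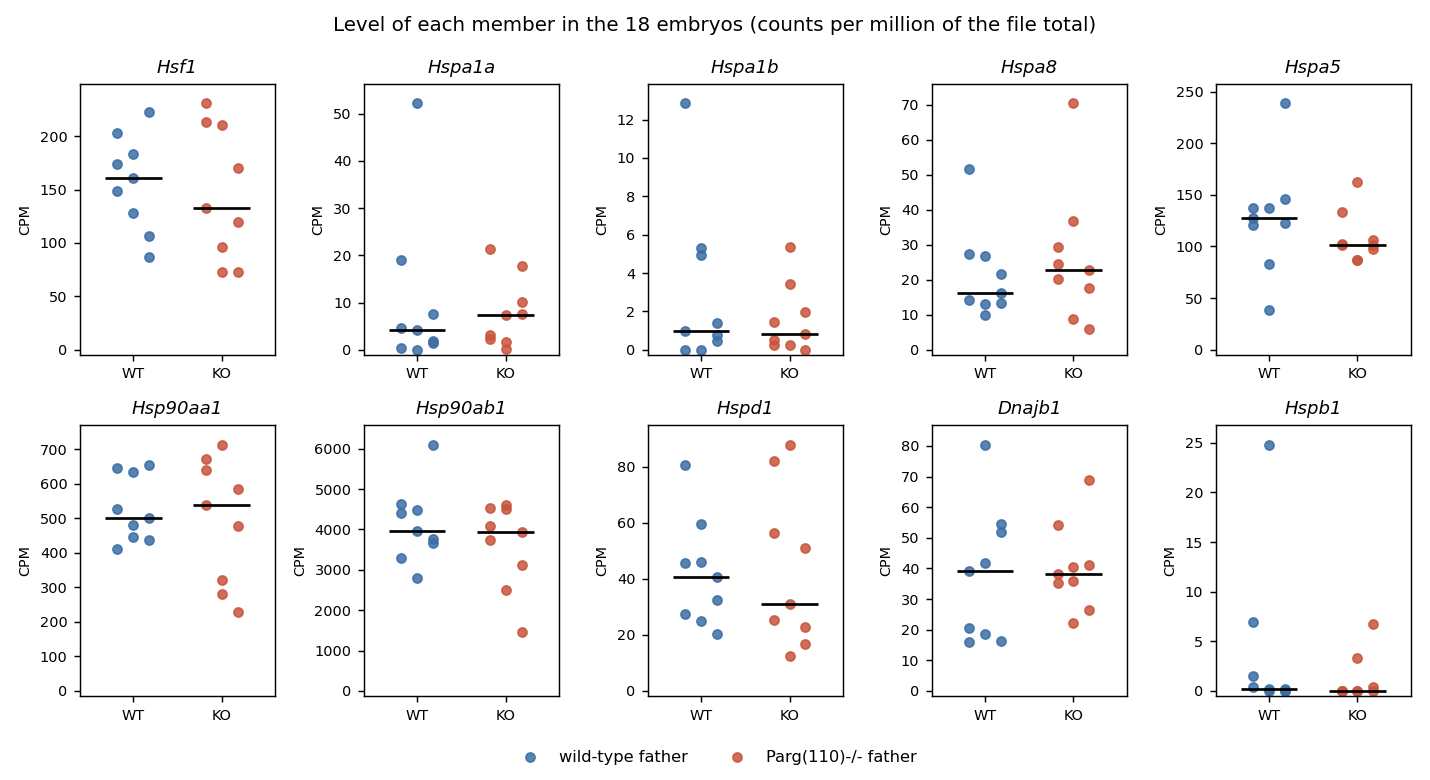
CPM of each member (vertical axis, from 0) in each of the 18 embryos by group of fathers, with the 3 fathers of a group side by side from left to right and the group median as a line. The groups overlap for every member, a wild-type embryo is highest for Hspa1a (52.2 CPM) and Hspb1 (24.8 CPM), and embryo 8-3 is lowest for both HSP90 transcripts.

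The HSP90 transcripts carried the most counts. Hsp90ab1 ranged from 2802 to 6104 CPM (median 3973) with wild-type fathers and from 1467 to 4611 CPM (median 3944) with Parg(110)-/- fathers. Hsp90aa1 ranged from 409 to 655 CPM (median 501) and from 229 to 713 CPM (median 538). The medians were alike, and the low values in the Parg(110) group came from few embryos: 8-3 (1467 CPM) and 7-1 (2499 CPM) lay below every wild-type embryo for Hsp90ab1, and 8-3 (229 CPM), 7-1 (280 CPM) and 7-3 (320 CPM) for Hsp90aa1. The log2 fold change between the groups was -0.19 (95% interval -0.58 to 0.21) for Hsp90ab1 and -0.08 (95% interval -0.54 to 0.38) for Hsp90aa1, and the second became 0.03 without embryo 8-3.

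For the remaining members the spread among embryos was wide beside the difference between the groups. Hspd1 ranged from 20.3 to 80.8 CPM (median 40.8) with wild-type fathers and from 12.5 to 87.9 CPM (median 31.2) with Parg(110)-/- fathers, where 2 embryos lay above and 2 below every wild-type embryo, and its log2 fold change was 0.04 (95% interval -0.83 to 0.90). Hspe1 (NM_008303), the partner of Hspd1 in the mitochondrial chaperonin, stood at 7.99 ± 5.88 and 19.2 ± 18.9 CPM (SD, n = 9 each, edgeR adjusted p = 0.926). Dnajb1 ranged from 15.8 to 80.4 CPM (median 39.2) and from 22.1 to 69.0 CPM (median 38.1), with a log2 fold change of 0.11 (95% interval -0.69 to 0.91). Hspb1 had counts in 6 of 9 embryos with wild-type fathers and 3 of 9 with Parg(110)-/- fathers. Its highest levels were 24.8 CPM (202 counts) in embryo 2-2, 6.92 CPM in 1-3, 6.74 CPM in 8-1 and 3.31 CPM in 7-2, and in the 9 embryos at 0 the depth allowed up to 0.24 to 1.05 CPM (3 counts, counting error only). The log2 fold change of Hspb1 was -1.80 (95% interval -5.17 to 1.57), and -0.04 when embryo 2-2 was left out.

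Parg(110) embryos left the wild-type range about as often for the members as for transcripts at large. Of 90 pairs of a member and a Parg(110) embryo, 6 lay above and 11 below every wild-type embryo, while 10.6% and 8.82% of all pairs of a transcript and an embryo did so. The members' share was thus smaller above and larger below. Hspa1a, Hspa1b and Hspb1 had a wild-type embryo at 0 CPM, so no embryo could lie below it. The pairs of all transcripts were not matched for this. The 17 pairs fell on Hspa8 (1 above, 2 below), Hsp90aa1 (2 and 3), Hsp90ab1 (0 and 2), Hspd1 (2 and 2) and Hsf1 (1 and 2). The coefficient of variation between embryos was smaller than the median of all transcripts tested (0.951 in the wild-type and 1.07 in the Parg(110) group) for all members but Hspa1a, Hspa1b and Hspb1 in the wild-type group, and for all but Hspa1b and Hspb1 in the Parg(110) group. In the wild-type group it was 0.181 for Hsp90aa1 and 0.230 for Hsp90ab1, and 1.67 for Hspa1a, 1.42 for Hspa1b and 2.17 for Hspb1. Hspa1a, Hspa1b and Hspb1 also had the lowest levels of the members, and the median of all transcripts was not matched for level. The coefficient of variation was higher in the Parg(110) group for 5 of 10 members and for 62.4% of all transcripts.

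The 3 embryos of each Parg(110)-/- father were also set against the 9 wild-type embryos, and no member passed an adjusted p of 0.1 for any father. The percent of all transcripts called was 0.00696 for father 6 (1 of 14377), 0 for father 7 and 0 for father 8. The lowest unadjusted p of a member was that of Hspb1 for father 6 (0.022, adjusted p = 0.69), a level under 0.05 that 7.18% of transcripts reached there. All 3 embryos of father 6 had 0 counts of Hspb1 in 32963585. By counting error alone this allows up to 0.091 CPM over the 3 files. The wild-type mean, 3.78 ± 8.20 CPM (SD, n = 9, median 0.225), was 41.5 times that limit. Without embryo 2-2 it was 1.15 ± 2.39 CPM (SD, n = 8), 12.6 times the limit. The limit leaves out the spread between embryos and losses in amplification, so these ratios do not bound the difference. Those means rest on fathers 1 and 2, since the embryos of wild-type father 3 were as low, with a mean of 0.0579 CPM from 1 count in 3 embryos. Hsp90ab1 was lowest in the embryos of father 8, with a mean of 2843 CPM against 3874 for father 7 and 4118 for father 6, but its difference from the wild-type embryos (log2 fold change -0.56, SE 0.28) had an adjusted p of 0.57 by edgeR. Among the 3 fathers of the wild-type group, and likewise of the Parg(110) group, no transcript was called (percent called 0 in both), with an unadjusted p below 0.05 for 4.01% and 8.22% of transcripts and for none of the members.

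Single Parg(110) embryos were then compared with the 9 wild-type embryos, where the lone embryo is assumed to vary like the others. Of 90 tests of a member none was called. The percent of all transcripts called was 0.027, 0.0108 and 0.0162 for embryos 6-1, 6-2 and 6-3, 0.157, 0.157 and 0.103 for 7-1, 7-2 and 7-3, and 0, 0.0545 and 0 for 8-1, 8-2 and 8-3. Embryo 7-2 held the lowest adjusted p of a member (0.591), and embryo 8-3 the lowest unadjusted p. In 8-3 the log2 fold change was -1.44 (SE 0.43, edgeR adjusted p = 0.665) for Hsp90ab1, with an unadjusted p of 0.0035, and -1.15 (SE 0.49, adjusted p = 0.69) for Hsp90aa1, with an unadjusted p of 0.029. An unadjusted p below 0.05 was reached by 4.62% of transcripts in that embryo. Both HSP90 transcripts were lowest of the 18 embryos in 8-3, whereas its Dnajb1 (69.0 CPM) was the highest of the Parg(110) group and its Hspa1a (17.7 CPM) the second highest.

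The wider chaperone network was examined through lists of genes by family. The lists hold 126 different genes with a row in the files, the genes of the 10 members included, so they partly repeat the results above. Hspa5 entered them by another of its rows, NM_001163434, at means of 127.9 and 108.4 CPM. Its member row had nearly the same means, 127.8 and 108.5 CPM. Of the 126 genes 109 were tested and 0 were called. At an unadjusted edgeR p below 0.05, 0 rose and 3 fell (2.75%, against 5.8% of all transcripts). The median log2 fold change of the 109 was -0.08, with 49 above and 60 below 0. The 3 were Dnajb6, a J protein that prevents aggregation, with 109.5 ± 75.0 CPM in the wild-type and 45.9 ± 31.5 CPM in the Parg(110) group (log2 fold change -1.24, adjusted p = 0.50 by edgeR, n = 9 each), Dnajc14, another J protein (-1.01, adjusted p = 0.794), and Cct6b, a subunit of the cytosolic chaperonin, which had counts in 3 wild-type embryos and in no Parg(110) embryo (adjusted p = 0.355). None of them passed the threshold.

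By family, the HSP70 list had 13 tested genes with a median log2 fold change of -0.09, where Hspa4, a nucleotide exchange factor of HSP70, had 0.45 and Hspa14 had -0.50 (adjusted p = 0.951 and 0.953, edgeR). All 4 HSP90 genes lay below 0, at a median of -0.14, Hsp90b1 of the endoplasmic reticulum at -0.15. The 28 J proteins were split evenly, 14 above and 14 below 0. Of 9 small heat shock proteins only Hspb1 and Hspb6 were tested, and Cryab, Hspb2 and Hspb3 had no count. The 11 chaperonin genes had 3 above and 8 below 0, with Cct8 at -0.55 (adjusted p = 0.908). Of 31 cochaperones 16 lay above and 15 below 0, with Ptges3, the HSP90 cochaperone p23, at 0.49 (adjusted p = 0.886) and the immunophilin gene Fkbp4 at -0.73 (adjusted p = 0.889). The 21 genes of folding in the endoplasmic reticulum had a median of -0.17, with Xbp1, a transcription factor of the unfolded protein response, at -3.52 (adjusted p = 0.864, counts in 5 embryos) and Pdia6, a disulfide isomerase, at 1.59 (adjusted p = 0.891). Hsf2 was found in 9 embryos at 0.868 ± 1.53 CPM in the wild-type and 6.13 ± 11.5 CPM in the Parg(110) group (log2 fold change 2.77, edgeR adjusted p = 0.908), and Hsf4 in 4 embryos (3.43, adjusted p = 0.872). The 15 tested targets that heat induces through Hsf1 were balanced, 7 above and 8 below 0 with a median of -0.05. Members are among these targets: Hspa1a, Hspa1b, Dnajb1, Hspb1, Hspd1, Hsp90aa1 and Hspa8. Stip1, which links HSP70 to HSP90, was at -0.42 (edgeR adjusted p = 0.924). Immediate early genes that respond to handling summed to 21.3 to 57.5 CPM in the wild-type and 21.5 to 105.6 CPM in the Parg(110) group. Egr1 made up most of the mean sum, at means of 33.6 and 38.1 CPM with counts in all 18 embryos. Its log2 fold change was 0.18 (edgeR adjusted p = 0.994). Dusp1 had the next highest means, 2.93 and 4.65 CPM, so the sum says little about the rest of the list. Fosb was at -1.36 and Dusp1 at 0.69 (adjusted p = 0.971 and 0.979), and Fos had no count.

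To ask whether a member followed the progress of the embryo, its level, as log2(CPM + 1), was related over the 18 embryos to a stage measure, the log2 summed CPM of the activation transcripts minus that of the maternal transcripts. This measure ran from -2.22 to -0.59 (median -1.51) in the wild-type group and from -3.27 to -1.001 (median -1.93) in the Parg(110) group. Over 10 relations, Hspb1 rose with it (Spearman's rho 0.72, permutation p 0.0013, adjusted 0.013; Pearson's r 0.66, permutation p 0.0043, adjusted 0.043), and r was 0.75 without the 2 embryos farthest from the median of the stage measure. Hspd1 went the other way (rho -0.60, permutation p 0.011, adjusted 0.053; r -0.54, permutation p 0.021, adjusted 0.104; r -0.46 without the 2 farthest embryos). The stage measure was higher in the 9 embryos with Hspb1 counts (median -1.31) than in the 9 without (median -1.9999), although their ranges overlapped. The other 8 members had adjusted Spearman p-values of 0.366 to 0.773, and rho was 0.07 for Hspa1a and 0.28 for Hspa1b. Spearman's rho of the stage measure with the total count was -0.21.

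**Figure D4:**
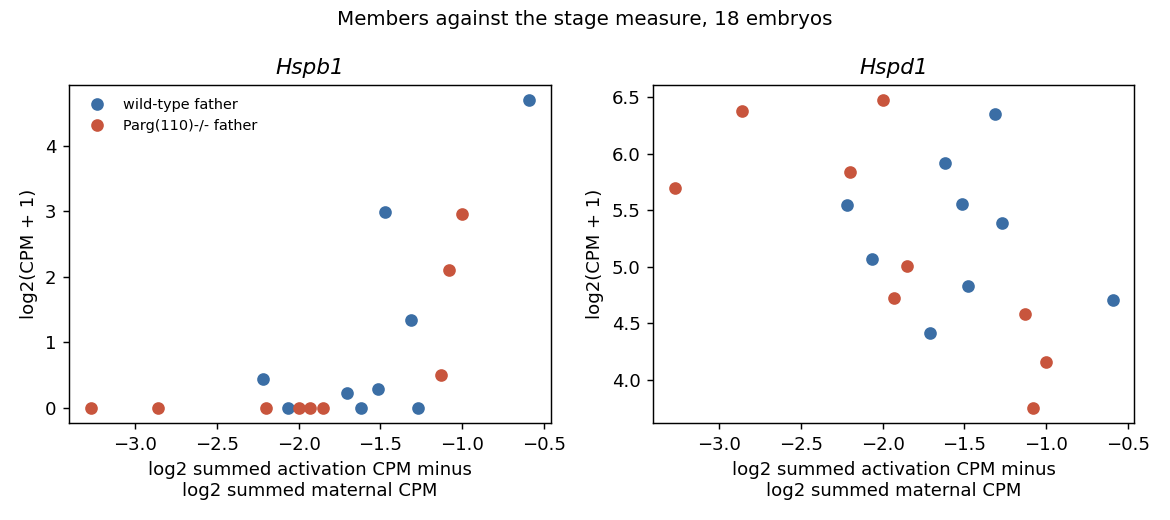
Level of Hspb1 and of Hspd1, as log2(CPM + 1), against the stage measure (log2 summed activation CPM minus log2 summed maternal CPM) for 18 embryos coloured by group of fathers. Hspb1 is higher towards the right (rho 0.72) and Hspd1 lower (rho -0.60).

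The relation of Hspb1 depended on a single transcript of the activation list. Sp110 made up 43.8% to 91.9% of the summed activation level (median 72.8%), and without it, a setting added after the data were seen, rho fell to 0.28 (permutation p 0.25) for Hspb1 and to -0.35 (permutation p 0.16) for Hspd1. Within the groups, rho for Hspb1 was 0.41 (n = 9, permutation p 0.28, adjusted 0.55) with wild-type fathers and 0.84 (n = 9, permutation p 0.0037, adjusted 0.037) with Parg(110)-/- fathers; for Hspd1 it was -0.03 (n = 9, permutation p 0.95) and -0.82 (n = 9, permutation p 0.010, adjusted 0.052). Pearson's r for Hspb1 was similar in the groups, 0.72 (permutation p 0.037, adjusted 0.24) with wild-type and 0.70 (permutation p 0.032, adjusted 0.16) with Parg(110)-/- fathers. Without the 2 embryos farthest from the median of the stage measure it was 0.33 and 0.83. For Hspd1, r was -0.12 and -0.78. As deviations from the mean of each father, rho was 0.63 for Hspb1 and -0.60 for Hspd1. Deviations within a father depend on each other and the permutations ran across fathers, so no p-value is given for them. For Hspb1 the deviations of father 6 were all 0. The difference between the groups in rho was not tested, and the permutations treat embryos of 1 father as independent.

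The transcripts with the most similar pattern over the 18 embryos, by Spearman correlation of log2(CPM + 1) among all transcripts tested, are given as a description. For Hspa1a they were Ubxn2b (rho 0.78), Dcaf12 (0.77) and Rspo2 (0.76), for Hspa8 they were Rmnd5b (0.79), Nedd4l (0.77) and Rsf1 (0.75), and for Hsp90aa1 they were NM_001111313, which has no symbol in the table used (0.85), Kif11 (0.79) and Lcp2 (0.79, with a median of 0 CPM). No chaperone gene of the lists was among these 9. They are the highest of 15333 transcripts tested, and how high such a top would lie by chance was not tested.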

How the data were processed

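RNA of single 2-cell embryos was amplified to cDNA (WT-Ovation One-Direct) and sequenced on an Illumina instrument. Per the labels and the study's methods, the authors mapped reads to mm9 with RUM, allowing 1 mismatch and dropping reads that did not map uniquely, and deposited raw read counts per RefSeq transcript, without normalization; the submitters' processing notes name DESeq 1.10.0. Totals of 2852858 to 13355161 counts set the depth. Amplification of 1 embryo's RNA loses rare transcripts and widens the spread, and intervals and limits from counts cover counting error only.

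The 18 files were grouped by the father's genotype. Tests were quasi-likelihood F tests in edgeR 4.0.16 (R 4.3.3, TMM) on transcripts that reached 10 counts in 3 or more embryos (in any embryo, for single-embryo comparisons), with Benjamini-Hochberg adjustment over all transcripts and a threshold of 0.1. The standard error was taken as the log2 change over the root of F. The functions were tested on simulated data. Levels are CPM of the file total. Correlations used 100000 permutations, two-sided, and a pseudocount of 1 CPM. Symbols (26136 of 26823 identifiers) came from RefSeq on GRCm38.p6, and positions, lengths and 32-base words from GENCODE vM1 on mm9, using the transcript with the longest coding sequence. Settings were varied one at a time: DESeq2 1.42.0, a random father effect in limma 3.58.1, no TMM, looser and stricter filters, sums over each father's embryos, a block for embryo number, and leaving out fathers or embryos singly.

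The members and the gene lists were chosen with earlier results of these data known. Besides the members, the rule named transcripts past the threshold in each chaperone list or, with none, the 2 with the smallest p, the 3 transcripts most like Hspa1a, Hspa8 and Hsp90aa1, and Parg. Sp110, Ovgp1 and Epcam were named after their values were seen. The list symbols Dnajb5, Hbb-b1, Zscan4e, Gm20767 and Dub1 were not analysed here.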

Additional observations from a re-analysis of the deposited data

Results flagged for a closer look

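Of the 20 sets of 9 embryos (10 members in each group of fathers), 6 held an embryo far from the rest. The rule expects about 1 in 20 for normally distributed values, but among all transcripts tested 33.6% of 30591 such sets held one, so the members' share is near that of transcripts at large. In the wild-type group, embryo 2-2 had 52.2 CPM of Hspa1a, the next embryo having 19.1 CPM, and 24.8 CPM of Hspb1, the next having 6.92 CPM. Embryo 1-1 had 12.8 CPM of Hspa1b against 5.28 CPM in the next. Embryo 1-3 had 51.7 CPM of Hspa8 against 27.5 CPM. In the Parg(110) group, embryo 7-3 had 70.4 CPM of Hspa8 against 36.8 CPM, and embryo 8-1 had 6.74 CPM of Hspb1 against 3.31 CPM. All 6 lie at the high end of their group.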

How the results depend on the processing

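No member was called under any alternative, in any comparison, but DESeq2 gave Hspb1 no adjusted p, between the groups or for any father. The number of transcripts called between the groups was 0, but 38 with DESeq2, and 0 to 5 when a father or an embryo was left out (5 without father 6, 2 without embryo 6-1 and 2 without embryo 7-1). The father as a random effect moved the median of all transcripts to -0.19, so its values are to be read against that shift. The same-numbered embryos come from different fathers and share only a number; with the embryo number as a block 0 transcripts were called, and the log2 fold change was 0.073 for Hspa1a and -0.040 for Hspd1. With the father as a random effect these were 0.18 and -0.083. Hspb1 was 0.069 with DESeq2, and Hsf1 was 0.031 with counts summed per father. Leaving out 1 embryo gave log2 fold changes of -0.74 to 0.69 for Hspa1a, -0.061 to 0.56 for Hspa8, -0.17 to 0.025 for Hsp90aa1, -0.16 to 0.22 for Hspd1, -0.022 to 0.32 for Dnajb1 and -0.20 to 0.00071 for Hsf1. Without father 1, Dnajb1 was -0.10 and Hsf1 0.013; without father 2, Hspa1a was 0.44; without father 3, Hspa5 was 0.00026 and Hspd1 -0.16; without father 6, Hspd1 was -0.18; without father 7, Hspa8 was -0.12; and without father 8, Hsp90aa1 was 0.026 and Hsf1 0.041. The cause of these changes of sign was not tested. Hspa1b was below 0 throughout but moved from -1.85 (without father 7) to -0.15 (without embryo 1-1) and -0.11 (embryo number as a block), and Hsp90ab1 from -0.30 to -0.025. Per kilobase found once in mm9, Hspa8 was 44.1, Hsp90aa1 714, Hsp90ab1 2036 and Hspd1 56.1 CPM. Of the relations with the stage measure, 2 passed an adjusted Spearman p of 0.1, and 0 passed in the wild-type embryos alone. There rho was -0.050 for Hspa1b, and in the Parg(110) embryos alone it was 0.050 for Hspa8. By Pearson's r, the adjusted permutation p of Hspb1 was 0.24 in the wild-type and 0.16 in the Parg(110) embryos alone. Leaving out each embryo gave rho of 0.66 to 0.80 for Hspb1 and -0.68 to -0.53 for Hspd1. For Hspb1, Hspa1a and Hspa1b the depth and the spread between embryos limit what can be seen.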
